A study of Mus musculus with 6 samples.

Results

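A set of 10 genes of the fibrillar collagen family was followed in cancer-associated fibroblasts sorted from orthotopic mouse lung tumours. By name they are Col1a1, Col1a2, Col2a1, Col3a1, Col5a1, Col5a2, Col5a3, Col11a1, Col11a2 and Col27a1, and all 10 were found among the 55298 genes of the files. The apCAFs are MHC class II-positive fibroblasts (libraries 1, 2 and 3), and the nonapCAFs are class II-negative fibroblasts of the same tumours (libraries 4, 5 and 6). Both came from wild-type C57BL/6 mice over 8 weeks old with no treatment named in the labels. Both gates kept cells with high forward scatter that carried podoplanin (PDPL in the labels) and PDGFRa, and left out cells with mCherry, EPCAM, CD31 or CD45. The labels describe 3 independent experiments in which both populations were taken at the same time from pooled tumours. They do not say which libraries share an experiment. A library may therefore hold cells of several animals, and the p-values measure the spread between such libraries.

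Collagen fibrils give tissue its tensile strength. Each collagen molecule is a triple helix of alpha chains, which are modified and folded in the endoplasmic reticulum, trimmed after secretion and crosslinked in the fibril. Type I collagen is built from the Col1a1 and Col1a2 chains and type III from Col3a1 alone, and both are the bulk fibril formers of lung interstitium and of scarring or tumour stroma. Type V (Col5a1, Col5a2 and Col5a3) and type XI (Col11a1 and Col11a2) lie inside other fibrils, start their growth and limit their width. Type II (Col2a1) is the main collagen of cartilage, where type XI and the divergent Col27a1 chain are also found.

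Values (what a gene "read" in a library) are the authors' normalized gene counts, without a unit, and sequencing depth is unknown. H2-Aa, which encodes a class II chain, checked the sort: it read 11556, 12693 and 22115 in apCAFs and 207, 252 and 187 in nonapCAFs. The gate's positive markers were present, with Pdgfra at 40769, 43116 and 89023 in apCAFs, against 17628, 17653 and 21525 in nonapCAFs. Pdpn, the podoplanin gene, read 8589, 8582 and 16492 in apCAFs, against 1538, 1848 and 1451 in nonapCAFs. Both were thus higher in every apCAFs library. Of the excluded markers, Epcam read 181, 209 and 21 in apCAFs and 13, 3 and 5 in nonapCAFs. Pecam1 (CD31) and Ptprc (CD45) overlapped between the groups. The libraries differed in what else they held. Markers of alveolar type II cells summed to 97847, 81007 and 8969 in apCAFs 1, 2 and 3 and to 10119, 10234 and 9018 in nonapCAFs. Over genes averaging 100 or more, apCAFs 3 stood apart from apCAFs 1 and 2 (SD of the log2 difference 0.708 and 0.687), which lay close to each other (0.238), and nonapCAFs 6 stood apart from nonapCAFs 4 and 5 in the same way (0.495 and 0.479, against 0.246).

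Fibrillar collagen transcripts made up a larger part of apCAFs libraries. The type I genes held 1.81% ± 0.472 of the library total in apCAFs and 0.612% ± 0.0369 in nonapCAFs, and Col3a1 held 1.60% ± 0.263 in apCAFs and 0.908% ± 0.0835 in nonapCAFs (SD, n = 3 each). Together the 10 genes made up 3.33%, 3.31% and 4.67% of the library total in apCAFs 1, 2 and 3, against 1.71%, 1.84% and 1.59% in nonapCAFs 4, 5 and 6. The lowest apCAFs library lay above the highest nonapCAFs library. Of all values on the 44 collagen genes in the files, the 10 genes followed here held 81.2% ± 3.09 in apCAFs and 70.4% ± 2.01 in nonapCAFs (SD, n = 3 each). These shares are descriptions without a test, and in sorted bulk RNA a higher share of collagen-producing cells cannot be told apart from more collagen RNA per cell.

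**Figure D1:**
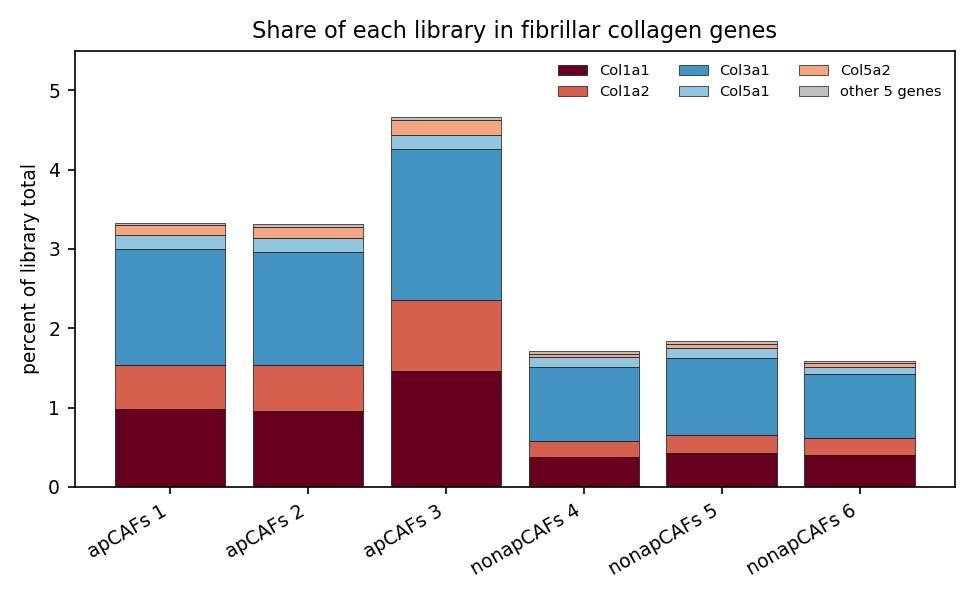
Stacked bars give the percent of each library's total normalized value held by the fibrillar collagen genes (y axis, percent; x axis, the 3 apCAFs and 3 nonapCAFs libraries). The apCAFs bars reach 3.31% to 4.67% and the nonapCAFs bars 1.59% to 1.84%, with Col3a1 and the type I genes filling most of each bar.

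In limma, fitted across all 36443 genes above 0 in at least 1 library, 4 of the 10 genes rose in apCAFs and none fell at a Benjamini-Hochberg adjusted p under 0.05. The share of all tested genes called was 4.4%, and 3.91% were called higher. All 10 had a mean value of at least 100, and among genes of that abundance 5.87% were called higher. The median log2 fold change of the 10 was 1.29, against -0.04 over all tested genes. In 7 of the 10, every apCAFs library exceeded every nonapCAFs library, which held for 17.1% of all tested genes. The reverse held for 5615 of the 36443 tested genes. At an unadjusted p under 0.05, 7 of the 10 were higher, against 4764 higher and 2257 lower of all tested genes. The authors' deposited table, made with DESeq2, lists 7 of the 10 as higher at an adjusted p under 0.05, where 20.6% of the genes with an adjusted p are so listed. The main fit treats the close libraries as separate. When apCAFs 1 and 2 were merged into their mean, and likewise nonapCAFs 4 and 5, no member passed in limma. Merging leaves 2 libraries a group, and 0 of all genes were called there. This fit therefore cannot tell whether the 4 calls depend on the close libraries. In it 6 of the 10 were higher at an unadjusted p under 0.05, where 4700 of all genes passed in either direction. The log2 fold changes of the 4 called genes were 1.75 to 2.05.

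**Figure D2:**
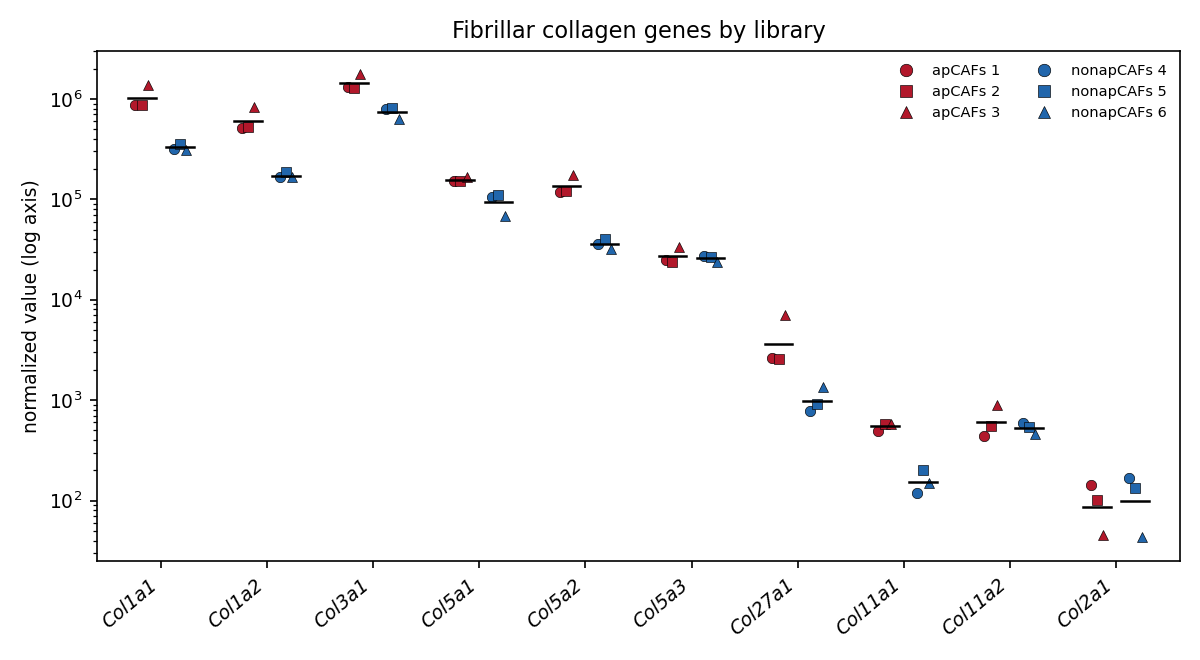
Each point is one library's normalized value of a gene (log axis), apCAFs in red on the left and nonapCAFs in blue on the right of each gene, with the bar at the geometric mean. The groups are apart for Col1a1, Col1a2, Col3a1, Col5a1, Col5a2, Col27a1 and Col11a1, and overlap for Col5a3, Col11a2 and Col2a1.

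The sequences below are 300-base windows around the annotated starts of Col1a2 and Col11a1, which rose, and of Col5a3, whose groups overlapped. They come from RefSeq (GRCm38.p6), run 5′ to 3′ on the gene's strand from 250 bases before the start to 50 bases after it, and carry in capitals each match to the CCAAT box (CCAAT), the GC box (GGGCGG) or the TATA box (TATAAA) on either strand. No other letters are in capitals.
Col1a2 (chr6:4505368-4505667, plus strand): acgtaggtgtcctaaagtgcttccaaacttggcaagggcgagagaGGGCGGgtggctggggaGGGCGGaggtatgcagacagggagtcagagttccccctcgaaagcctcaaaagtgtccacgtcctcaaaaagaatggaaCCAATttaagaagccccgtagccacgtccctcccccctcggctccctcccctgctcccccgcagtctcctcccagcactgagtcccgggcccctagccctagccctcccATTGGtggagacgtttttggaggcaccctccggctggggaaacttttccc
Col11a1 (chr3:114030290-114030589, plus strand): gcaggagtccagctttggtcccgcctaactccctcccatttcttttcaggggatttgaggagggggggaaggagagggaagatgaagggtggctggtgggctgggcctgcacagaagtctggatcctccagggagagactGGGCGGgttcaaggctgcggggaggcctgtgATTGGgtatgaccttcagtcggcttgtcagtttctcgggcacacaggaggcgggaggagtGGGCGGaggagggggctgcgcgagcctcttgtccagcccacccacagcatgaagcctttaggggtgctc
Col5a3 (chr9:20815018-20815317, minus strand): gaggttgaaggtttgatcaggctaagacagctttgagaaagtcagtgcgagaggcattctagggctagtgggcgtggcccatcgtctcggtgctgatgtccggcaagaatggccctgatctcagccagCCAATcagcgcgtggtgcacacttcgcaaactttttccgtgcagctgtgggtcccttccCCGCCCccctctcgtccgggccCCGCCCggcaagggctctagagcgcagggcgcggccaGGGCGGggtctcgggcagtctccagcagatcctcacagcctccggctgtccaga
The CCAAT box is the site of the factor NF-Y. In the Col1a2 window it lies 109 to 105 bases before the start and, on the opposite strand, at bases 1 to 5, where base 1 is the start itself. Col11a1 carries it on the opposite strand 79 to 75 bases before the start, and Col5a3 on the gene's own strand 122 to 118 bases before the start. Among the 7 members matched to such a window, 3 held a CCAAT box, 6 a GC box and 2 a TATA box. Of 32851 mouse promoter windows of the same length, 37.4% held a CCAAT box, 35.7% a GC box and 13.6% a TATA box. The Col1a2 window starts from a RefSeq start that lies inside the gene interval given in the files. All 3 printed windows hold both a CCAAT box and a GC box. They are the 3 of the 7 that hold a CCAAT box, so sharing it follows from which windows were printed. A match of letters is not a measured binding site.

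The type I genes rose together. Col1a1 (chromosome 11, 94936224 to 94953042, plus strand; mm10) read 878211, 863563 and 1365163 in apCAFs 1, 2 and 3, against 318172, 356813 and 311391 in nonapCAFs 4, 5 and 6. It was among the most abundant genes of every library, ranking second in each apCAFs library. Its log2 fold change was 1.62 (SE 0.23, 3.08-fold, limma adjusted p = 0.0273). Col1a2 (chromosome 6, 4504814 to 4541544, plus strand) read 507923, 519557 and 835876 in apCAFs, against 165929, 185523 and 166019 in nonapCAFs. The groups were far apart, and apCAFs 3 was the highest library for both type I genes. Col1a2 had a log2 fold change of 1.81 (SE 0.24, limma adjusted p = 0.0247).

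Without apCAFs 3, the type I genes still passed, with a log2 fold change of 1.41 for Col1a1 (limma adjusted p = 0.0152) and 1.58 for Col1a2 (limma adjusted p = 0.0119). Leaving out any other single library took both above 0.05, with log2 fold changes of 1.59 to 1.74 for Col1a1 and 1.78 to 1.94 for Col1a2 and limma adjusted p-values of 0.0684 to 0.105 and 0.0627 to 0.0955. Quantile normalization, which gives every library the same set of values, took Col1a1 to a log2 fold change of 0.33 (limma adjusted p = 0.317) and Col3a1 to 0.00, since both stand at or near the top rank in all libraries.

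Col3a1, the type III gene (chromosome 1, 45311538 to 45349706, plus strand), was the most abundant gene of all 6 libraries. It read 1309341, 1289196 and 1773235 in apCAFs, against 784730, 817471 and 635483 in nonapCAFs. Every apCAFs library was higher, by a smaller factor than for the type I genes. Its log2 fold change was 0.96 (SE 0.20, 1.94-fold), and it did not pass in limma (adjusted p = 0.0708). It passed once genes averaging under 10 were left out of the test (limma adjusted p = 0.0339), and in the authors' deposited table (DESeq2 adjusted p = 1.44e-06). The microRNA gene Gm47302 lies inside Col3a1 on the same strand and read 23331 to 65226, so the files' counting could give both genes the same reads.

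Among the 3 type V genes, Col5a2 passed and Col5a1 and Col5a3 did not. Col5a2 (chromosome 1, 45374321 to 45503282, minus strand) encodes the alpha 2 chain and read 117175, 121013 and 174211 in apCAFs, against 36135, 40148 and 31723 in nonapCAFs. Its log2 fold change of 1.92 was the highest of the 10 (SE 0.22, 3.77-fold, limma adjusted p = 0.0182). Col5a1 (chromosome 2, 27886425 to 28039514, plus strand), the chain found in nearly all type V molecules, read 152127, 152095 and 167232 in apCAFs, against 106661, 109915 and 69004 in nonapCAFs. These groups did not overlap, but the log2 fold change of 0.75 did not pass (SE 0.23, limma adjusted p = 0.16). Col5a3 (chromosome 9, 20770050 to 20815067, minus strand), the third chain, read 24916, 24015 and 33867 in apCAFs and 27285, 26644 and 23875 in nonapCAFs. The groups overlapped, at a log2 fold change of 0.07 (SE 0.19, limma adjusted p = 0.83), and the sign turned under 3 other scalings of the libraries.

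Without apCAFs 3, Col5a2 passed (log2 fold change 1.73, limma adjusted p = 0.0157), and without any other single library it did not (1.83 to 2.02, limma adjusted p = 0.0538 to 0.0736). In the authors' deposited table Col5a1 was listed at a DESeq2 adjusted p of 0.00201 and Col5a3 at 0.711. Parts of the Col5a1 gene are overlapped on the opposite strand by the noncoding genes 2810430I11Rik and Gm13372, whose reads cannot be told apart from those of Col5a1 where counting ignores strand.

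The type XI genes were far less abundant than the type I genes, and Col11a1 passed while Col11a2 did not. Col11a1 (chromosome 3, 114030540 to 114220718, plus strand), whose chain can also join type V molecules, read 494, 576 and 577 in apCAFs, against 120, 201 and 151 in nonapCAFs. It rose, with a log2 fold change of 1.82 (SE 0.23, 3.54-fold, limma adjusted p = 0.022). Col11a2 (chromosome 17, 34039437 to 34066685, plus strand) read 441, 558 and 893 in apCAFs and 587, 540 and 456 in nonapCAFs. The groups overlapped and only apCAFs 3 stood above the others, with a log2 fold change of 0.20 (SE 0.30, limma adjusted p = 0.696) that was -0.08 without apCAFs 3. Col11a1 passed without apCAFs 3 (limma adjusted p = 0.0481) or nonapCAFs 5 (limma adjusted p = 0.0408) and not without any other single library (limma adjusted p = 0.0655 to 0.0745). It also missed the threshold without both apCAFs 3 and nonapCAFs 6 (log2 fold change 1.77, limma adjusted p = 0.107).

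Col11a2 sits in the major histocompatibility complex, the region that also holds class I and class II genes. H2-K1, a class I gene 39089 bases away, read 172206, 180347 and 243482 in apCAFs, against 66817, 67515 and 55127 in nonapCAFs (log2 fold change 1.64, limma adjusted p = 0.0206). H2-Oa, a class II gene 25654 bases away on the other side, read 0 to 5 in every library. Rxrb, a nuclear receptor gene 1037 bases upstream, read 6174 to 7155 in apCAFs and 7325 to 7652 in nonapCAFs (log2 fold change -0.16, limma adjusted p = 0.518). The rise of H2-K1 was thus not shared by Col11a2 or Rxrb at the test's threshold, and the differences between these neighbours were not tested. A second pair of neighbours, Col3a1 and Col5a2, lies tail to tail on chromosome 1 with 24614 bases between the gene ends.

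Col27a1 (chromosome 4, 63214004 to 63334991, plus strand) had its most uneven values in apCAFs. It read 2656, 2572 and 6991 in apCAFs 1, 2 and 3, against 785, 909 and 1343 in nonapCAFs. All apCAFs libraries were higher, and apCAFs 3 lay far above both others. Its log2 fold change of 1.88 did not pass (SE 0.47, limma adjusted p = 0.107), and without apCAFs 3 it was 1.41 (limma adjusted p = 0.0823). Without both apCAFs 3 and nonapCAFs 6 it was 1.63 and passed (limma adjusted p = 0.0274), and the authors' deposited table gives a DESeq2 adjusted p of 1.56e-05.

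Col2a1 (chromosome 15, 97975602 to 98004695, minus strand) was the faintest member. It read 144, 101 and 45 in apCAFs and 166, 132 and 43 in nonapCAFs, with overlapping groups (log2 fold change -0.17, SE 0.68, limma adjusted p = 0.891). The lowest values were in apCAFs 3 and nonapCAFs 6. Of 12 chondrocyte markers, Matn1 and Ucma were at 0 in every library, Acan, which encodes the main cartilage proteoglycan, read 0 to 35, and Sox9, also found in other cell types, read 4205 to 8064. The list summed to 5191 to 7279 in apCAFs and 4497 to 8249 in nonapCAFs, nearly all of it Sox9. Comp, a cartilage and tendon matrix gene, fell to 11, 7 and 11 in apCAFs, against 82, 76 and 242 in nonapCAFs (log2 fold change -3.47, limma adjusted p = 0.0302).

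**Figure D3:**
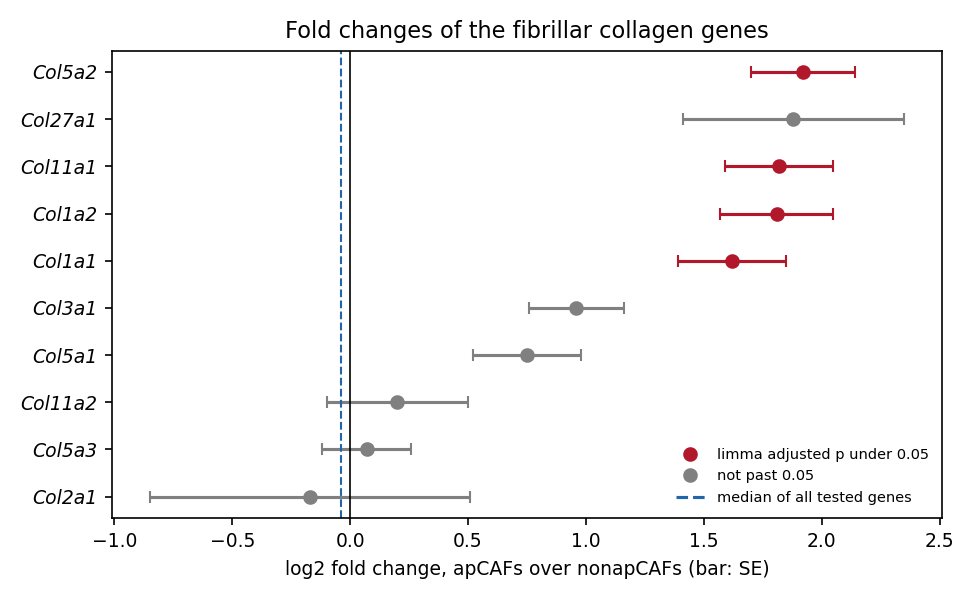
Points are log2 fold changes of the 10 genes, apCAFs over nonapCAFs, with bars of 1 SE from limma, and red marks an adjusted p under 0.05. Col5a2, Col11a1, Col1a2 and Col1a1 lie between 1.62 and 1.92 and passed, and Col27a1 lies at 1.88 and did not. Col3a1 and Col5a1 lie at 0.96 and 0.75, and Col11a2, Col5a3 and Col2a1 lie within 1 SE of 0.

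Per kilobase of each gene's principal coding transcript in GENCODE M21, Col3a1 led in both populations. Its level was 262000 ± 49200 per kb in apCAFs and 134000 ± 17400 per kb in nonapCAFs (SD, n = 3 each). Col1a1 followed, at 175000 ± 48100 per kb in apCAFs and 55400 ± 4130 per kb in nonapCAFs, and then Col1a2, at 116000 ± 34800 per kb in apCAFs and 32300 ± 2110 per kb in nonapCAFs. In apCAFs the order below these was Col5a2, Col5a1, Col5a3, Col27a1, Col11a2, Col11a1 and Col2a1. Within apCAFs the ranges over libraries overlapped for Col1a1 and Col1a2 and for Col5a2 and Col5a1, and the other neighbours in the order were apart. Compared inside each apCAFs library, Col1a1 stood above Col1a2 per kb, at ratios of 1.56, 1.5 and 1.47. In nonapCAFs, Col5a1 stood above Col5a2 (11300 ± 2710 and 5430 ± 636 per kb), Col2a1 stood next above Col11a1, and the ranges overlapped for Col27a1 and Col11a2 and for Col2a1 and Col11a1. Counted over all annotated exons, which run to 12426 bases for Col1a2 against 5348 in its principal transcript, Col1a1 stood first in apCAFs. Its range overlapped that of Col3a1 (158000 ± 43500 and 148000 ± 27900 per kb), with Col3a1/Col1a1 at 0.997, 0.998 and 0.868. On that length Col5a1 stood above Col5a2 in apCAFs (18500 ± 1030 and 14300 ± 3320 per kb). In nonapCAFs Col5a3 then ranked above Col5a2 (3810 ± 266 and 3750 ± 439 per kb) and Col11a1 above Col2a1, both with overlapping ranges.

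Ratios between chains within a library do not change when each library is scaled by a single factor. Quantile normalization does not scale in that way, and the ratios were not recomputed under it. Of 13 ratios, 10 did not overlap between the groups, 4 higher and 6 lower in apCAFs. With 3 libraries against 3, the exact two-sided permutation test over 20 splits cannot give a p below 0.1, which adjusts to 0.13 over the 13 ratios, so no ratio could pass. The ratios share genes and are not independent of one another.

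The type III to type I ratio was lower in apCAFs. Col3a1/Col1a1 was 1.49, 1.49 and 1.30 in apCAFs, against 2.47, 2.29 and 2.04 in nonapCAFs (log2 difference -0.67, exact permutation p = 0.1). Within type I, Col1a1/Col1a2 was 1.73, 1.66 and 1.63 in apCAFs and 1.92, 1.92 and 1.88 in nonapCAFs. This is a small shift without overlap (log2 difference -0.19, exact permutation p = 0.1). Per kilobase of the principal transcript the same ratio was 1.47 to 1.56 in apCAFs and 1.69 to 1.73 in nonapCAFs, and per kilobase of all annotated exons it was 3.09 to 3.27 in apCAFs and 3.55 to 3.64 in nonapCAFs, so its level depends on the length used and its difference does not.

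Within type V, Col5a1 was lower relative to Col5a2 in apCAFs, without overlap. Col5a1/Col5a2 was 1.30, 1.26 and 0.96 in apCAFs, against 2.95, 2.74 and 2.18 in nonapCAFs (log2 difference -1.16, exact permutation p = 0.1). Col5a3/Col5a1 was 0.164, 0.158 and 0.203 in apCAFs, against 0.256, 0.242 and 0.346 in nonapCAFs (log2 difference -0.68, exact permutation p = 0.1). Col5a2/Col1a2 was 0.231, 0.233 and 0.208 in apCAFs and 0.218, 0.216 and 0.191 in nonapCAFs, with overlapping groups (log2 difference 0.10, exact permutation p = 0.3). Against its chromosomal neighbour, Col5a2/Col3a1 was 0.0895, 0.0939 and 0.0982 in apCAFs and 0.0460, 0.0491 and 0.0499 in nonapCAFs (log2 difference 0.96, exact permutation p = 0.1).

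The type XI ratio Col11a1/Col11a2 was 1.12, 1.03 and 0.647 in apCAFs, against 0.206, 0.373 and 0.333 in nonapCAFs (log2 difference 1.62, exact permutation p = 0.1). Col27a1/Col1a1 and Col2a1/Col1a1 overlapped between the groups (exact permutation p = 0.5 and 0.2). Set against the basement membrane gene Col4a1, Col1a1 was 5.12, 5.34 and 7.86 times as high in value in apCAFs and 2.82, 3.19 and 3.74 times in nonapCAFs (log2 difference 0.89, exact permutation p = 0.1).

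**Figure D4:**
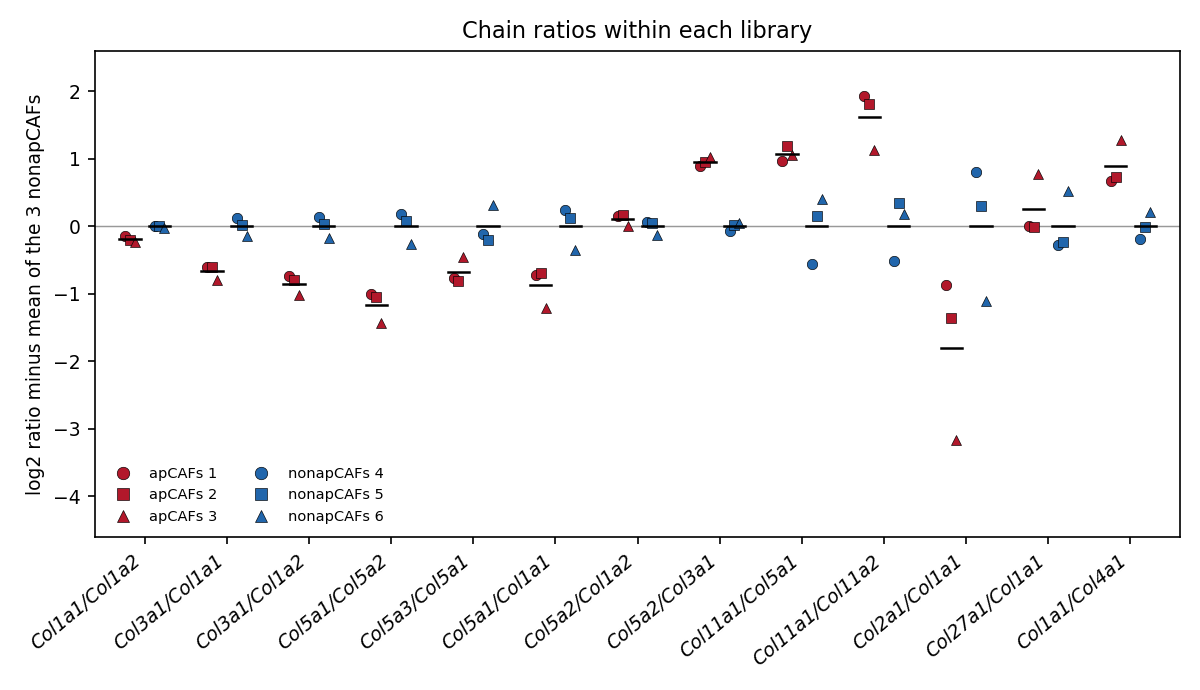
Each point is the log2 ratio of a pair of genes in one library, less the mean of the 3 nonapCAFs libraries for that ratio, with apCAFs in red to the left and nonapCAFs in blue to the right and bars at group means. The apCAFs points lie apart from the nonapCAFs points in 10 of the 13 ratios and overlap for Col5a2/Col1a2, Col2a1/Col1a1 and Col27a1/Col1a1.

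The members fell into different profiles over the 6 libraries. Likeness was measured as the root mean square difference of centred log2 values over the 6 libraries, among 11307 other genes averaging 1000 or more. Nearest to Col1a1 were Sparc, which encodes a collagen-binding matrix protein (0.041), the actin-associated Palld (0.054), Cgnl1 (0.058), Acvrl1 (0.059) and Dusp1 (0.064). Col1a2 stood at place 25 (0.097), Col5a2 at place 102 (0.159) and Col3a1 at place 513 (0.348). Nearest to Col3a1 were P4ha2, a subunit of the enzyme that hydroxylates collagen prolines (0.032), Chst11 (0.049), the collagen uptake receptor gene Mrc2 (0.050), Tnfrsf9 (0.063) and Map3k5 (0.065). Nearest to Col5a1 were Golm1 (0.033), Jun (0.033), the collagen receptor gene Itga1 (0.040), Fosl2 (0.049) and Fads2 (0.050), and Col5a2 was at place 8680 (0.612). The libraries form 2 groups, so a small value means mainly a like difference between the groups.

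Of 21 genes listed for procollagen modification and folding, 1 rose and none fell in limma, and the median log2 fold change was 0.43. At an unadjusted p under 0.05, 12 were higher and 1 lower, and 15 were higher and 1 lower without overlap. Of all 36443 tested genes, 4764 were higher and 2257 lower at that threshold, and 6218 were higher and 5615 lower without overlap. The number called depended on the setting, with 6 at a pseudocount of 10, 7 and 10 among genes averaging 10 or more and 100 or more, 6 after scaling to library totals, 8 with a variance trend and 5 without apCAFs 3 and nonapCAFs 6. It was 4 without apCAFs 3 and 0 without any other single library, with no filter or with close libraries averaged. The single called gene was Creb3l1, named after its values were seen. It encodes a transcription factor of collagen-secreting cells, not a procollagen enzyme or chaperone. None of the listed enzyme or chaperone genes passed in the main fit. Creb3l1 read 8458, 8308 and 19015 in apCAFs and 2296, 2487 and 2341 in nonapCAFs (log2 fold change 2.21, limma adjusted p = 0.0383). The collagen chaperone gene Serpinh1 read 176125, 170920 and 210893 in apCAFs and 130981, 126215 and 93518 in nonapCAFs (log2 fold change 0.68, limma adjusted p = 0.148). P4hb, the other subunit of the prolyl hydroxylase, had a log2 fold change of 0.53 (limma adjusted p = 0.167).

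Of 13 tested genes of procollagen cleavage and crosslinking, 6 rose and none fell, with a median of 0.31. Tll1, a protease of the family that removes the carboxy propeptide, read 737, 823 and 1249 in apCAFs, against 87, 93 and 58 in nonapCAFs (11.6-fold, limma adjusted p = 0.0119). Lox, a lysine oxidase that starts crosslinks, was 4.37-fold higher (limma adjusted p = 0.0178). Adamts2, which removes the amino propeptide of fibrillar procollagens, was 2.82-fold higher (limma adjusted p = 0.0249). Adamts14, a protease of the same group, read 8540, 8242 and 8683 in apCAFs, against 12496, 12247 and 12985 in nonapCAFs, lower in every apCAFs library (log2 fold change -0.57, limma adjusted p = 0.0751). The authors' deposited table gives Adamts14 a DESeq2 adjusted p of 9.57e-13. Pcolce, the enhancer of carboxy propeptide removal, read 47847 to 60620 in apCAFs and 56621 to 59945 in nonapCAFs (limma adjusted p = 0.771). Adamts14 and Pcolce were named after their values were seen.

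Among 16 genes of fibril-associated and fibril-binding proteins, 5 rose and 1, Comp, fell, with a median of 0.68. Thbs1 was 4.50-fold (limma adjusted p = 0.0249), the small proteoglycan gene Bgn 2.79-fold (limma adjusted p = 0.0283) and Prelp 2.72-fold higher (limma adjusted p = 0.0276). Lum, another small proteoglycan gene of the list, named after its values were seen, read 11026, 11304 and 8086 in apCAFs, against 21256, 19490 and 15611 in nonapCAFs (log2 fold change -0.89, limma adjusted p = 0.0952). Without overlap, 8 of the 16 genes were higher in apCAFs and 3, namely Comp, Lum and Aspn, were lower. Of all 36443 tested genes, 6218 were higher and 5615 lower in that way. Of 9 tested collagen receptor genes none passed in limma in either direction. At an unadjusted p under 0.05, 4 of the 9 were higher, as were 4764 of all 36443 tested genes. Itgb1, the shared integrin beta chain, read 62254 to 72199 in apCAFs and 59014 to 68972 in nonapCAFs, and Ddr2, a collagen-activated kinase, read 20191 to 27837 in apCAFs and 27946 to 32428 in nonapCAFs. Of 11 genes of fibrillar collagen breakdown, 2 rose and none fell, Timp3 (6.16-fold, limma adjusted p = 0.0114) and Timp1 (3.42-fold, limma adjusted p = 0.018), which encode protease inhibitors. At an unadjusted p under 0.05, 5 of the 11 were higher, and 5 were called at a pseudocount of 10, with either filter on low means or with a variance trend. The 5 at the unadjusted threshold include genes of degrading enzymes, named after their values were seen. Mmp2, a gelatinase, was 3.30-fold (limma adjusted p = 0.065) and Ctsk, the collagenolytic cathepsin K, 2.94-fold higher (limma adjusted p = 0.0868). Mmp8 was 2.31-fold higher (limma adjusted p = 0.0576), and each of these was higher without overlap. None of the 11 was lower at the unadjusted threshold, and 1 was lower without overlap. Of 21 genes of collagen transcription and TGF-beta response, 2 rose and none fell, Tgfb2 (4.59-fold, limma adjusted p = 0.0403) and the receptor gene Tgfbr2 (2.64-fold, limma adjusted p = 0.032), with a median of 0.12. All 21 averaged 100 or more, and 5.87% of all genes of that abundance were called higher.

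Some other collagen genes rose too. Of the 6 type IV genes, which form basement membrane, 4 rose, with a median of 1.54, and examples are Col4a6 (7.77-fold, limma adjusted p = 0.0232), Col4a4 (3.65-fold, limma adjusted p = 0.0477) and Col4a2 (1.85-fold, limma adjusted p = 0.0378). All 6 were higher without overlap, as were 6218 of all 36443 tested genes. The number called was 1 after quantile normalization or median centring and 2 with a pseudocount of 0.5 or robust estimation. It was 5 at a pseudocount of 10 or with either filter on low means, 6 with a variance trend, 3 without apCAFs 3, and 0 without any other single library, with no filter or with close libraries averaged. Of 26 tested nonfibrillar collagen genes outside type IV, 2 rose and none fell, Col12a1 (3.23-fold, limma adjusted p = 0.0382) and Col15a1 (2.34-fold, limma adjusted p = 0.0434), with a median of 0.44. Of all tested genes 3.91% were called higher, and of those averaging 100 or more 5.87%. The number called of the 26 was 1 after quantile normalization or median centring, 0 to 1 with a single library left out and 4 with a variance trend. Across the 18 other settings, Tll1 and Timp3 were called in 17, and each other called gene named in the 8 lists by rule in 6 to 12. The differences between these lists and the fibrillar genes were not tested.

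**Figure D5:**
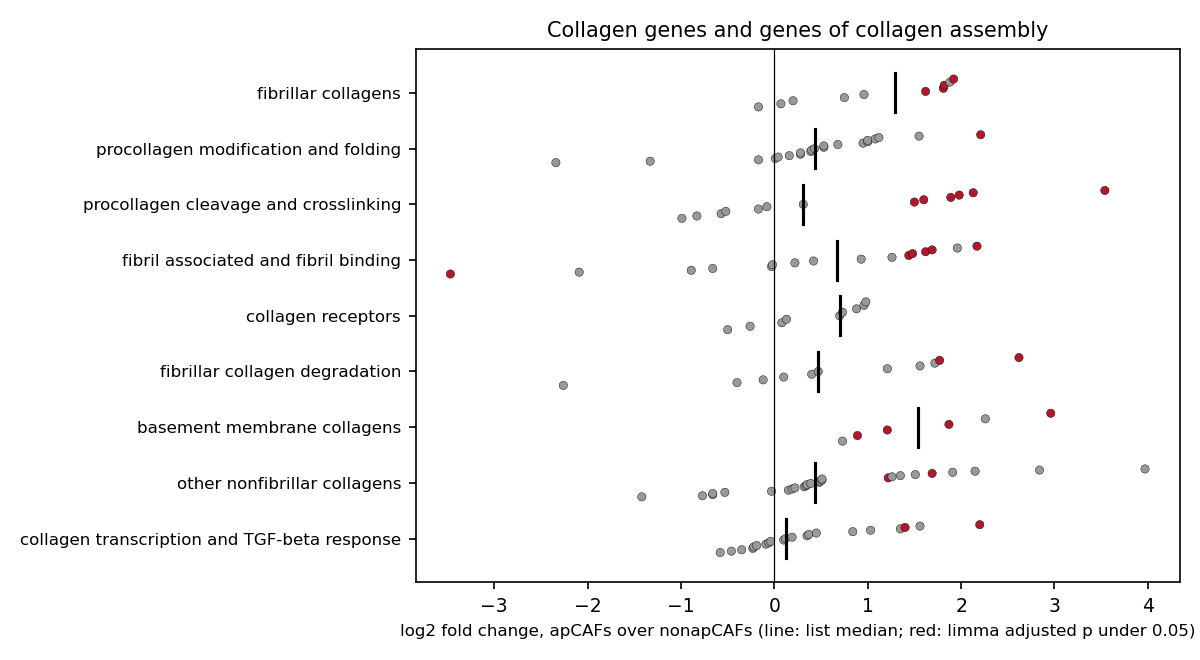
Points are log2 fold changes, apCAFs over nonapCAFs, of the tested genes of each list, with a black line at the list's median and red for a limma adjusted p under 0.05. List medians run from 0.12 for transcription and TGF-beta genes to 1.54 for basement membrane collagens, and the fibrillar collagens lie at 1.29.

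Some lists of cell type markers were higher in apCAFs, as the collagen genes were, and others were not. Of 9 mesothelial markers 7 rose, and the list summed to 40331 to 51979 in apCAFs and 5277 to 6001 in nonapCAFs. Of 11 pericyte and smooth muscle markers 5 rose, with sums of 74935 to 86257 in apCAFs and 21531 to 28715 in nonapCAFs. The pericyte marker Rgs5, named after its values were seen, read 13, 24 and 53 in apCAFs and 76, 31 and 227 in nonapCAFs (log2 fold change -1.63, limma adjusted p = 0.351). The other 10 were higher without overlap. Of 9 alveolar type II markers, 10 leukocyte markers and 8 osteoblast markers none passed in limma. All 9 type II markers had a log2 fold change above 0, with a median of 4.6. Without overlap 2 were higher, as were 6218 of all 36443 tested genes. Sftpc read 48853, 40491 and 226 in apCAFs and 185, 185 and 124 in nonapCAFs. The authors' deposited table gives a DESeq2 adjusted p of 4.28e-06 for Sftpc and 0.692 for Lamp3, both named after their values were seen. At an unadjusted p under 0.05, no type II marker passed in limma, 2 leukocyte markers were higher and 1 lower, and 1 osteoblast marker was lower. Of all 36443 tested genes, 4764 were higher and 2257 lower at that threshold. Leukocyte markers summed to 11667, 11347 and 3558 in apCAFs 1, 2 and 3 and to 1902, 2641 and 1805 in nonapCAFs. Most of the apCAFs 1 and 2 sums was Lyz2, a lysozyme gene that mouse alveolar type II cells also express, at 9898, 9470 and 640 in apCAFs and 470, 1028 and 226 in nonapCAFs. The other 9 leukocyte markers summed to 1769, 1877 and 2918 in apCAFs and 1432, 1613 and 1579 in nonapCAFs, with apCAFs 3 the highest. Of 8 endothelial markers 1 rose, Kdr, at 1843, 1914 and 3066 in apCAFs, against 65, 77 and 36 in nonapCAFs. The other 7 endothelial markers overlapped between the groups one by one and summed to 1448, 1203 and 929 in apCAFs and 1436, 1408 and 1219 in nonapCAFs. Osteoblast markers summed to 33138 to 60702 in apCAFs and 68457 to 83840 in nonapCAFs, most of it Spp1, at 28407 to 52557 in apCAFs and 60634 to 74337 in nonapCAFs. The genes behind these sums were picked out after their values were seen. Pan-fibroblast markers summed to 422057 to 486849 in apCAFs and 372753 to 384266 in nonapCAFs, and 1 of 8, Thy1, rose. At an unadjusted p under 0.05, 4 of the 8 were higher and 2 lower. The 2, named after their values were seen, were S100a4 and Lum (log2 fold change -0.76 and -0.89). Vim, the most abundant of the 8, overlapped between the groups (log2 fold change -0.16). The part of all these cell type markers in the collagen differences was not tested. The type I and Col5a2 values were highest in apCAFs 3, the apCAFs library with the lowest type II sum. Among nonapCAFs, the library with the lowest type II sum, nonapCAFs 6 at 9018, had the lowest Col1a1 and Col5a2 values (311391 and 31723). A link between type II sums and collagen values was not tested.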

How the data were processed

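RNA-seq was done on 6 libraries, 3 of apCAFs and 3 of nonapCAFs. Per the file headers, the deposited values are normalized counts per gene, whole numbers that the authors scaled between libraries. These deposited values are treated here as a score and not as raw counts, since the authors had scaled and rounded them. Their totals ran from 77960347 to 93330791 per library and are not depths. The authors' deposited table also holds DESeq2 p-values, a fold ratio, log2 values and the GC percent of each gene, which was not used. For the authors' steps, the submitters' processing notes list mm10 and the tools Bowtie2, DESeq2 and Trim Galore without their roles. The counter is not given in the sources used here, nor is the strand setting. All 10 members have identical coordinates in GENCODE M21.

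Genes were tested two-sided with limma 3.58.1 (R 4.3.3) on log2(value + 1), by group alone, among genes above 0 in at least 1 library (18855 were at 0), and fold changes are on that scale, which understates changes of low genes. The fit was tested on simulated data. Chain ratios used log2 of (value + 1) over (value + 1) and an exact permutation test. Named genes are the members, the sort markers, up to 3 called genes of each list by smallest p or its 2 most abundant, overlapping or neighbouring genes and the 5 nearest profiles. Members, lists and tests were chosen with earlier results of these data known. Transcript lengths in place of all exons were chosen after seeing the data. Libraries share no replicate number, so no block was fitted. Alternatives covered the pseudocount, filters, scaling, variance model and libraries left out.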

Additional observations from a re-analysis of the deposited data

How the results depend on the processing

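The 4 fibrillar collagen calls became 0 with no filter on low values and 0 with apCAFs 1 and 2 and nonapCAFs 4 and 5 averaged, were 0 to 4 with a single library left out, and were 3 to 6 under the other settings. All genes called, 1602 in the main analysis, were 2527 with a pseudocount of 10, 2465 and 2748 among genes averaging 10 or more and 100 or more, 436 with no filter, 3024 after scaling to library totals, 3453 with a variance trend, 2489 without apCAFs 3 and nonapCAFs 6, 0 with close libraries averaged (4700 at an unadjusted p under 0.05), and 310 to 1791 with a single library left out. The split was 1685 higher and 1339 lower after scaling to library totals and 1049 and 281 after quantile normalization, against 1425 and 177. Calls in the other 8 lists, 22 in all, were 38, 38 and 44 with the pseudocount of 10 and the filters at 10 and 100, 4 with no filter, 46 with a variance trend, 0 with close libraries averaged, and 2 to 21 with a single library left out. The 4 fibrillar calls were 0 without apCAFs 1, apCAFs 2, nonapCAFs 4 or nonapCAFs 6, 1 without nonapCAFs 5 and 4 without apCAFs 3. With no filter, 7 members were higher at an unadjusted p under 0.05, where 8465 of all genes passed in either direction. Averaging leaves 2 libraries a group and no filter adds genes at 0; other causes were not tested.

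Quantile normalization set Col3a1 to 0.00 by construction, since it ranks first in all 6 libraries, and took Col1a1 to 0.33 (limma adjusted p = 0.317). It moved the median of all genes to -0.19, and centring on library medians to -0.14. Signs turned only for genes that were not called: Col5a3 was -0.08 scaled to library totals, -0.07 quantile-normalized, -0.02 median-centred and -0.14 without apCAFs 3 and nonapCAFs 6; Col11a2 was -0.03 quantile-normalized and -0.18 without both libraries; Itgb1 was -0.07, -0.12 and -0.02 under the 3 scalings. With a single library left out, Col2a1 ran from -0.76 to 0.29, Col5a3 from -0.08 to 0.17 and Col11a2 from -0.08 to 0.43. Over all 18 alternatives Col1a2 ran from 1.17 to 1.94, Col5a2 from 1.62 to 2.05 and Col11a1 from 1.28 to 2.02. The 12 ratios other than Col27a1/Col1a1 kept their direction with each library left out. No paired analysis was possible because the groups share no replicate number. Depth is unknown.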
